A study of Mus musculus with 12 samples.

Results

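Sun3, Acsm5, Slc6a17 and Glp2r are 4 of the 21493 genes counted in adult mouse cardiomyocytes. They are described here because their transcripts fell close to 0 reads in cells without desmin, for Slc6a17 only in mice that had not swum. Sun3, Acsm5 and Slc6a17 were chosen from their change between genotypes without swimming, and Glp2r from its change between genotypes after swimming. The values of those contrasts are therefore given as a description with no test, and a p-value is given for each gene only in the other pair of groups compared between genotypes, which shares no library with the pair that chose it. All 4 passed the filter on low counts that left 13158 genes for testing, but that filter used all 12 libraries, with those that chose each gene. In the 6 libraries of the tested pair alone, Slc6a17 and Glp2r did not pass it. The 4 genes had also been proposed with the results of all 12 libraries known. The p-values are therefore not independent evidence, and the spread behind each was estimated over all 12 libraries.

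Poly-A RNA was sequenced from cardiomyocytes of 3-month-old mice, in 4 groups of 3 libraries. The Des+/+ mice carried the intact desmin gene and the Des-/- mice lacked it, and mice of either genotype had been through the swimming exercise (swim) or had not (non-swim). Cells were freed from the heart by enzymatic perfusion and harvested at once, and each library pooled cells of several mice. The study's methods describe a Des+/+ line that carries GFP under the αMHC promoter on a 129SV background and its cross to Des-/- mice of the same background, for use independent of sex. Whether the sequenced mice came from that cross is not given in the sources used here.

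The 4 proteins belong to unrelated families. Sun3 is a SUN-domain protein of the nuclear envelope, best known from spermatids. SUN proteins span the inner nuclear membrane and bind KASH proteins of the outer one, and the resulting LINC bridge couples the lamina to the cytoskeleton. Acsm5 is a mitochondrial medium-chain acyl-CoA synthetase, a family that activates fatty acids by joining them to coenzyme A. Slc6a17 is a sodium-coupled transporter that loads neutral amino acids into synaptic vesicles and is known mainly from neurons. Glp2r is the G-protein-coupled receptor for glucagon-like peptide 2, a gut hormone, and is best known from the intestine. Desmin itself is the muscle intermediate filament protein that ties myofibrils to each other, to mitochondria and to the nuclear surface.

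The genes lie on 3 chromosomes, none of them chromosome 1, where Des is. In GRCm38 with the GENCODE M21 annotation, Sun3 (ENSMUSG00000040985) spans chr11:9016054-9048991 on the minus strand, with 1299 bases of exon in 11 blocks. Acsm5 (ENSMUSG00000030972) spans chr7:119519463-119545551 on the plus strand, with 3799 bases of exon in 21 blocks. Slc6a17 (ENSMUSG00000027894) spans chr3:107467543-107518018 on the minus strand, with 10283 bases in 14 blocks. Glp2r (ENSMUSG00000049928) spans chr11:67661502-67771153 on the minus strand, with 5815 bases in 15 blocks.

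The sequences directly upstream of 3 of the annotated RefSeq starts are shown so that genes which were low together can be compared there. They come from RefSeq (GRCm38.p6), run 5′ to 3′ on the strand of the gene, and hold up to 250 bases before the start, with bases that lie in an annotated exon left out. Capitals mark matches, on either strand, to the motifs searched.
Acsm5, chr7:119526015-119526207, plus strand: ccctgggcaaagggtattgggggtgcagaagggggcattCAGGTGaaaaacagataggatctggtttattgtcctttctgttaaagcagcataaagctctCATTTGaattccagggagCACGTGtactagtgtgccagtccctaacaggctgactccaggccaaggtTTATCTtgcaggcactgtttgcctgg
Slc6a17, chr3:107518019-107518268, minus strand: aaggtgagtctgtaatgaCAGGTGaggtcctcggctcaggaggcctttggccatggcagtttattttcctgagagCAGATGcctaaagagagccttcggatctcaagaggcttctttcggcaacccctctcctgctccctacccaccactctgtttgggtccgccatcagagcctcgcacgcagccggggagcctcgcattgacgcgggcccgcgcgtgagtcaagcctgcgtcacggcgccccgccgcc
Glp2r, chr11:67771154-67771403, minus strand: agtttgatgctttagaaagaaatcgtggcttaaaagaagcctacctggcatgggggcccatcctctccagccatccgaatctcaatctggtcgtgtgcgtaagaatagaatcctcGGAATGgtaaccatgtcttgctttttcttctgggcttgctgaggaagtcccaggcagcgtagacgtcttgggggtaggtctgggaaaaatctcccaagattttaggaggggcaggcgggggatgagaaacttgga
The RefSeq start of Acsm5 used here, 119526265, lies inside the GENCODE gene, which begins at 119519463, so its window is upstream of the RefSeq start alone. The Sun3 window overlaps the first exon of a neighbouring gene, so its letters are not printed.

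No motif was found upstream of all 4 genes. The E-box CANNTG occurred 1 time upstream of Sun3, 3 times upstream of Acsm5 and 2 times upstream of Slc6a17, and 66.2% of 32851 mouse promoter windows of the same length held it. The GATA motif AGATAA occurred upstream of Sun3 and Acsm5, against 9.99% of all windows. The TEAD motif CATTCC occurred upstream of Glp2r, against 12.6% of all windows. The estrogen-related receptor half-site AAGGTCA (4.08% of windows), the TATA box TATAAA (12.4%), the cyclic AMP element TGACGTCA (1.55%), the MEF2 motif (0.508%) and the CArG box (1.47%) were found in none of the 4 windows. The motifs do not overlap each other in these windows. The windows held 58.4% G and C for Sun3, 51.2% for Acsm5, 62.0% for Slc6a17 and 50.4% for Glp2r, around the median of all windows of 52.4%.

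Reads assigned to genes ranged from 4320819 to 12072443 per library and were fewest in the Des-/- swim group (4320819 to 6521963). Levels are given as reads and as CPM, the reads of a gene per 1000000 reads of the library total after TMM scaling. At these depths 3 reads, taken as the floor, equal 0.262 to 0.656 CPM, and intervals cover counting error only. The targeted gene went with its labels: Des held 8502 to 31203 reads in Des+/+ and 446 to 679 reads in Des-/- libraries. Ventricular cardiomyocyte markers were present in every library, but their share moved with genotype. The 16 markers together took 4.22% to 10.8% of assigned reads in Des+/+ libraries and 0.871% to 4.22% in Des-/- libraries. Their summed level was 84920 to 128500 CPM in Des+/+ non-swim, 42660 to 69240 in Des+/+ swim, 8539 to 38530 in Des-/- non-swim and 21910 to 35920 in Des-/- swim libraries. In bulk samples, fewer cells of a type and less RNA per cell cannot be told apart. Fibroblast markers (12) summed to 2691 to 4170 CPM in Des+/+ and 4624 to 41490 in Des-/- libraries, and macrophage markers (12) to 258 to 384 and 289 to 4616. Replicate 2 of the Des+/+ non-swim group stood apart for the genes described here, and replicate 3 of both Des-/- groups for its low cardiomyocyte share, so results are also given without these 3 libraries.

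Sun3 was the shortest of the 4 transcripts and the highest per length. Its reads were 79, 13 and 68 in the Des+/+ non-swim libraries and 34, 54 and 66 in the Des+/+ swim libraries. They were 2, 0 and 0 in the Des-/- non-swim libraries and 2, 2 and 2 in the Des-/- swim libraries. No Des-/- library passed 2 reads and no Des+/+ library held fewer than 13. At the mean Des+/+ level of the same swimming state, the Des-/- libraries would have held 49.9 to 64.7 reads without and 29.2 to 45.0 reads after swimming. At the level of the lowest Des+/+ library, they would have held 13.4 to 17.4 and 18.4 to 28.2 reads.

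In Des+/+ cells Sun3 stood at 5.66 ± 3.92 CPM without and 6.40 ± 2.74 CPM after swimming (SD, n = 3 each). In Des-/- cells it stood at 0.0709 ± 0.123 CPM without and 0.343 ± 0.0824 CPM after swimming (SD, n = 3 each). The order from high to low was Des+/+ swim, Des+/+ non-swim, Des-/- swim and Des-/- non-swim. The 2 Des+/+ groups differed by less than their spread. The contrast that chose Sun3, without swimming, had a log2 change of -6.10, at a pooled ratio of 84.4 (95% exact interval 23.0 to 703) from 160 reads against 2. Without Des-/- replicate 1, which held both of those reads, the ratio was at least 38.4 (against 3 reads over the group), and without Des-/- replicate 3 it was 51.9. After swimming, in the other pair of groups, Sun3 was lower in Des-/- cells by a pooled ratio of 18.7 (8.40 to 51.8), from 154 reads against 6. The log2 change was -4.19 (SE 0.82), with an edgeR adjusted p of 0.0158. The call was lost without Des+/+ swim replicate 3 (adjusted p 0.061) and without Des-/- swim replicate 1 (0.0526), while the log2 change stayed between -4.44 and -3.82 over the 12 fits that each left out 1 library.

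Acsm5 held 27, 58 and 25 reads in the Des+/+ non-swim libraries and 17, 24 and 30 in the Des+/+ swim libraries. It held 1, 2 and 0 reads in the Des-/- non-swim and 2, 3 and 4 in the Des-/- swim libraries. The 6 Des-/- libraries all lay below the 6 Des+/+ libraries in CPM, as did those of Sun3 and of 8.51% of the 13158 genes tested. Unlike Sun3, Acsm5 was highest in Des+/+ non-swim replicate 2.

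The mean level of Acsm5 in Des+/+ cells was 4.07 ± 2.39 CPM without and 2.95 ± 1.18 CPM after swimming (SD, n = 3 each). In Des-/- cells the means were 0.519 ± 0.204 CPM after swimming and 0.111 ± 0.113 CPM without it (SD, n = 3 each). In this order from high to low, the 2 Des+/+ groups overlapped. The contrast that chose Acsm5 had a log2 change of -5.11, at a pooled ratio of 38.7 (12.9 to 191) from 110 reads against 3. It ran from 23.8 without Des-/- replicate 3 to 81.5 without Des-/- replicate 2. After swimming the ratio was 5.75 (2.86 to 13.1), from 71 reads against 9, and the log2 change was -2.50 (SE 0.67, edgeR adjusted p 0.0379). That call was lost in 8 of 12 fits that left out 1 library, with adjusted p-values up to 0.129, which include the removal of any of the 6 swim libraries, of Des+/+ non-swim replicate 1 or of Des-/- non-swim replicate 1. The log2 change lay between -2.72 and -2.15 in those fits.

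Slc6a17 varied widely between Des+/+ libraries. Its reads were 98, 8 and 50 in the Des+/+ non-swim libraries and 13, 36 and 5 in the Des+/+ swim libraries. They were 1, 3 and 1 in the Des-/- non-swim libraries and 7, 6 and 5 in the Des-/- swim libraries. Without swimming the genotypes did not overlap, although Des+/+ replicate 2 held only 0.935 CPM. After swimming they did, with 0.712 to 3.85 CPM in Des+/+ and 0.770 to 1.31 CPM in Des-/- libraries. At the level of the lowest Des+/+ swim library, the Des-/- swim libraries would have held 3.25 to 5.0 reads.

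In order from high to low, the group means of Slc6a17 were 5.66 ± 5.40 CPM in unswum and 2.03 ± 1.63 CPM in swum Des+/+ cells, then 1.03 ± 0.273 CPM in swum and 0.178 ± 0.141 CPM in unswum Des-/- cells (SD, n = 3 each). Neither of the first 2 steps exceeded the spread, and the last one did. The contrast without swimming, which chose it, had a log2 change of -4.93 and a pooled ratio of 32.9 (13.8 to 103), from 156 reads against 5. It ran from 17.5 without Des+/+ replicate 1 to 57.8 without Des-/- replicate 2. After swimming the ratio was 2.19 (1.26 to 3.96), from 54 reads against 18, and the log2 change of -1.02 (SE 0.87) had an edgeR adjusted p of 0.45. The ratio fell to 1.17 without Des+/+ swim replicate 2, which held 36 of the 54 reads. The name of a nearly lost transcript therefore holds for Slc6a17 in the unswum Des-/- libraries, and the swum ones held 5 to 7 reads each.

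Glp2r held 29, 40 and 33 reads in the Des+/+ swim libraries and 0, 0 and 2 in the Des-/- swim libraries. It held 31, 2 and 23 reads in the Des+/+ non-swim libraries and 0, 3 and 0 in the Des-/- non-swim libraries. After swimming the genotypes were far apart, while without swimming Des+/+ replicate 2, at 0.234 CPM, lay below Des-/- replicate 2, at 0.340 CPM. At the level of that Des+/+ library, the Des-/- non-swim libraries would have held 2.06 to 2.67 reads, under the floor of 3.

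Glp2r was highest in swum Des+/+ cells, at 4.13 ± 0.648 CPM, and stood at 1.99 ± 1.71 CPM in unswum ones (SD, n = 3 each). Its level was 0.113 ± 0.196 CPM in unswum and 0.103 ± 0.178 CPM in swum Des-/- cells (SD, n = 3 each). The 2 Des+/+ groups overlapped. The Des-/- groups did not differ beyond their spread. The contrast that chose Glp2r, after swimming, had a log2 change of -5.06 and a pooled ratio of 37.2 (10.03 to 311), from 102 reads against 2. It was 22.7 without Des-/- replicate 1 and at least 15.9 (against 3 reads over the group) without Des-/- replicate 3, which held both of those reads. In the libraries without swimming the ratio was 19.7 (6.40 to 98.4), from 56 reads against 3, and the log2 change was -4.08 (SE 1.14, edgeR adjusted p 0.019). This call was lost without Des+/+ non-swim replicate 1, without Des-/- non-swim replicate 1 and without Des-/- non-swim replicate 3, with adjusted p-values up to 0.065. The ratio was 12.6 without the first and 12.1 without the last of these libraries.

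**Figure D1:**
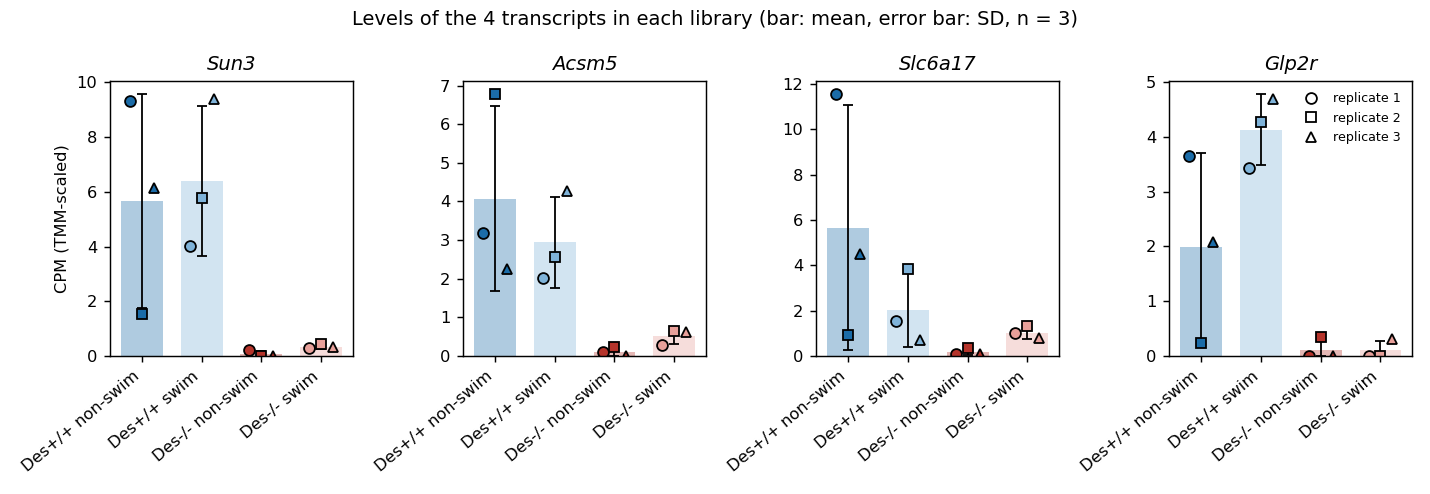
CPM of each transcript (y axis, linear, its own scale in each panel) in the 4 groups (x axis), with 1 point per library, shaped by replicate number, and bars for the mean ± SD of 3 libraries. Des-/- libraries of Sun3 and Acsm5 lie below every Des+/+ library, while the swum groups of Slc6a17 overlap and Des+/+ non-swim replicate 2 of Glp2r lies in the Des-/- range.

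Of the 3 genes tested after swimming, Sun3 and Acsm5 passed the test in the lower direction and Slc6a17 did not, where 5.57% of all 13158 genes passed in that direction. Glp2r, the 1 gene tested without swimming, passed the test where 18.0% of all genes passed as lower. Since the genes were proposed with these results known, the counts are not independent evidence. All Des-/- libraries lay below all Des+/+ libraries after swimming for 18.6% of genes and without swimming for 24.9%. Among the 2321 genes that were called lower without swimming with a mean of at least 20 reads and no overlap, Sun3 (-6.10), Des (-5.31), Acsm5 (-5.11) and Slc6a17 (-4.93) had the most negative log2 changes. Among the corresponding 731 genes after swimming, Zfp429 (-5.74), Gm8909 (-5.39) and Ceacam2 (-5.36) came before Glp2r (-5.06), and Kcnj14 (-4.84) and Sun3 (-4.19) after it. These places restate the choice and the values just outside it.

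Compared per length of exon, the Des+/+ levels were far from each other. Sun3 stood at 4.35 CPM per kb in Des+/+ non-swim and 4.92 in Des+/+ swim libraries, against 1.07 and 0.776 for Acsm5. Slc6a17 stood at 0.551 and 0.198 and Glp2r at 0.342 and 0.711. In the same unit Des stood at 631 and 339, so each of the 4 lay far below Des in these bulk libraries also where desmin was intact. In Des-/- non-swim libraries their levels were 0.0546, 0.0292, 0.0173 and 0.0195 CPM per kb, in the order Sun3, Acsm5, Slc6a17 and Glp2r, and in Des-/- swim libraries 0.264, 0.137, 0.0998 and 0.0176.

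Because cardiomyocyte markers fell with genotype too, the reads of each gene were also set against the reads of the 16 markers in the same library. Per 1000000 marker reads, Sun3 stood at 110, 11.8 and 66.8 in the Des+/+ non-swim and 11.2, 0 and 0 in the Des-/- non-swim libraries. After swimming it stood at 58.0, 135 and 157 in Des+/+ and 7.92, 12.2 and 14.1 in Des-/- libraries. The genotypes therefore stayed apart for Sun3 on this denominator, narrowly without swimming. Acsm5 also stayed apart, with 24.6 to 52.8 against 0 to 5.88 without swimming and, narrowly, 29.0 to 71.4 against 7.92 to 28.1 after it. The share of all genes that stayed apart on this denominator was not counted. Glp2r stayed apart after swimming (49.5 to 100.3 against 0 to 14.1) and overlapped without it. Slc6a17 overlapped in both states, and after swimming 2 of its 3 Des+/+ libraries, at 22.2 and 11.9, lay below the 3 Des-/- libraries, at 27.7, 36.7 and 35.1.

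The ratio per marker read for Sun3 was 17.4 (95% exact interval 4.73 to 145) without and 10.2 (4.58 to 28.2) after swimming. For Acsm5 it was 7.97 (2.66 to 39.2) and 3.14 (1.56 to 7.14), and for Glp2r 4.06 (1.32 to 20.3) and 20.3 (5.47 to 170). For Slc6a17 it was 6.78 (2.84 to 21.2) without swimming and 1.19 (0.689 to 2.16) after it, where the interval covers 1. All these intervals leave out the spread between libraries, so an interval that excludes 1 is no test of genotype. Without swimming, Slc6a17 and Glp2r overlapped between genotypes on this denominator. The reads of all 16 markers were lower without swimming in Des-/- cells by the test, with a median log2 change of -2.21, and 1 of 16 after swimming, with a median of -0.71. Scaled to marker reads in the model, the log2 change after swimming was -3.37 for Sun3 (edgeR adjusted p 0.0813), -1.61 for Acsm5 (0.18) and -0.32 for Slc6a17 (0.771), and without swimming it was -2.28 for Glp2r (0.0787), none of them called. That scaling, added after the data were seen, moved the median log2 change of all genes to 0.91 after and 2.71 without swimming, and called 31 of 13158 genes after and 12214 without swimming, so Glp2r was uncalled where most genes were called. The part of the cell mix in these changes was not tested.

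**Figure D2:**
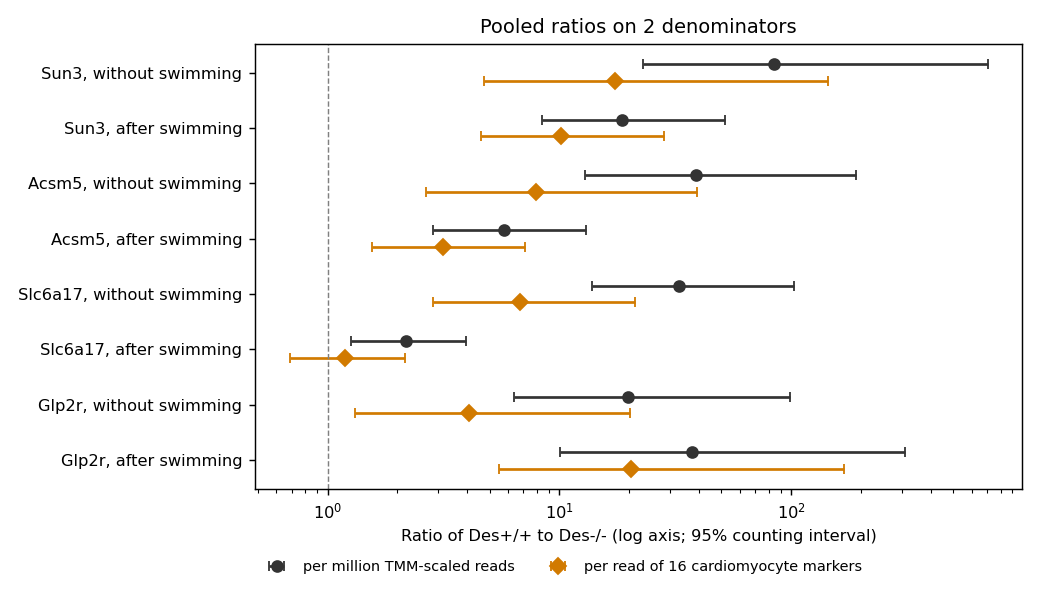
Ratio of Des+/+ to Des-/- (x axis, log scale) from reads pooled over 3 libraries a group, for each transcript without and after swimming (y axis), with 95% exact intervals for counting error. Circles are ratios of CPM and diamonds ratios per read of 16 cardiomyocyte markers, which lie further left in all 8 pairs and reach 1.19 for Slc6a17 after swimming.

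With the 3 libraries that stood apart left out together, the log2 change after swimming was -4.13 for Sun3 (edgeR adjusted p 0.0118), -2.69 for Acsm5 (0.0264) and -0.87 for Slc6a17 (0.471), and for Glp2r without swimming -3.98 (0.01). The calls were those of all 12 libraries. This fit was added after the data were seen, and Des+/+ non-swim replicate 2 was picked by its reads of these same genes. It is therefore no independent check of the calls, least of all for Glp2r, which had 2 reads there.

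Swimming was then compared within each genotype. Since 1 of the 2 groups behind each of these values had been used to choose the gene, they are given as a description with no test. Over all genes, 0.0912% (Des+/+) and 0.0228% (Des-/-) were called. In Des+/+ cells the log2 change with swimming was 0.17 for Sun3, -0.47 for Acsm5, -1.45 for Slc6a17 and 1.05 for Glp2r. In Des-/- cells it was 2.08 for Sun3, 2.14 for Acsm5, 2.46 for Slc6a17 and 0.07 for Glp2r. Sun3, Acsm5 and Slc6a17 held more reads in the swum than in the unswum Des-/- libraries in total, 6 against 2, 9 against 3 and 18 against 5, at the lower depth of the swum group. The difference of the genotype effects between swum and unswum cells contains the contrast that chose each gene, so no test of it is given for the 4, and whether their change differs with swimming was not tested. By edgeR, 0 of 13158 genes were called for it, against 2148 with an unadjusted p under 0.05 and 299 called by DESeq2.

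Des+/+ non-swim replicate 2 split the 4 genes. It had the fewest Des+/+ reads of Sun3 (13) and Glp2r (2), few of Slc6a17 (8), and the most of Acsm5 (58). It also had the most Des reads of all libraries (31203) and the highest share of cardiomyocyte markers (10.8%), so it was not low in cardiomyocyte transcripts as a whole. Over the 6 Des+/+ libraries, Sun3 and Glp2r varied together (Pearson r 0.88 on log2 CPM), whereas Acsm5 varied against both (r -0.46 with Sun3 and -0.67 with Glp2r). Slc6a17 stood at 0.46 with Sun3, 0.32 with Glp2r and -0.48 with Acsm5. Over all 12 libraries, where genotype separates the points, the 6 pairs had r from 0.656 to 0.907. These are descriptions over libraries that share depth and cell mix.

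The genes whose log2 CPM ran most like each of the 4 over the 12 libraries were drawn from all tested genes. For Sun3 they were Myl1 (r 0.976), Tmem267 (0.962), Mrpl15 (0.956), Psmb5 (0.952) and Trmt10c (0.944). Myl1, which encodes the fast skeletal essential myosin light chain, held 688, 155 and 920 reads in Des+/+ non-swim, 207, 446 and 514 in Des+/+ swim, 26, 24 and 36 in Des-/- non-swim and 23, 18 and 38 in Des-/- swim libraries. Like Sun3 it was lowest among Des+/+ libraries in non-swim replicate 2. Mrpl15, a mitochondrial ribosomal protein, and Psmb5, a proteasome subunit, ran in parallel at far smaller folds, with a log2 change after swimming of -0.98 for Mrpl15.

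For Acsm5 the most alike genes were Snrpn (r 0.969), Ppp5c (0.964), St3gal5 (0.963), Clybl (0.963) and Mrpl37 (0.959). Clybl encodes a mitochondrial citramalyl-CoA lyase, and without swimming its level was 72.6 ± 5.59 CPM in Des+/+ and 15.6 ± 4.02 CPM in Des-/- cells (SD, n = 3 each). For Slc6a17 likeness was weaker, led by Mrps25 (0.913), a mitochondrial ribosomal protein, and Rfk (0.908), riboflavin kinase, then Amd2 (0.861), Egln3 (0.856) and Fam81a (0.856). For Glp2r it was led by Ythdf1 (0.971), a reader of N6-methyladenosine in RNA, then Ceacam2 (0.959), Zfp758 (0.956), Klk1b22 (0.952) and Cacng6 (0.941), a calcium channel gamma subunit. Klk1b22 held 141, 0 and 15 reads in Des+/+ non-swim and 86, 188 and 96 in Des+/+ swim libraries, and 0 in each Des-/- library. Ceacam2 and Klk1b22 belong to families of near-identical genes among which reads can be split, so their values are uncertain.

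**Figure D3:**
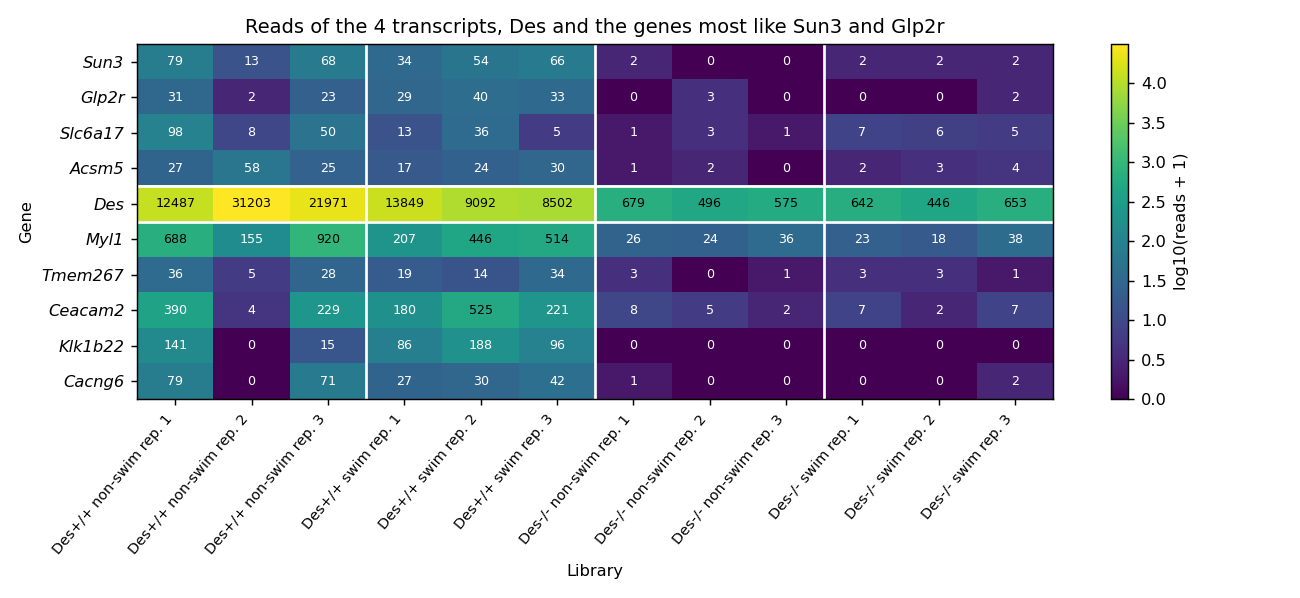
Reads of the 4 transcripts, Des and 5 of the genes most like Sun3 or Glp2r (y axis) in the 12 libraries (x axis), with the read count printed in each cell and colour for log10(reads + 1). Des+/+ non-swim replicate 2 is dark for Glp2r, Ceacam2, Klk1b22 and Cacng6 and bright for Des.

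Only 4 of the 21493 genes had at most 3 reads in each Des-/- library and more than 3 in each Des+/+ library, and Sun3 was the one with the most reads. The others were Tmem267, a membrane protein, with 5 to 36 reads in Des+/+ libraries, Lpar3, a receptor for lysophosphatidic acid, with 5 to 12, and Ddn, dendrin, with 4 to 6. The mirror pattern was met by 1 gene. Both patterns are set in reads and the Des-/- swim libraries were the shallowest, so the 2 counts are not on equal terms. Acsm5 missed the pattern of Sun3 by 1 library with 4 reads, Slc6a17 by the swum Des-/- libraries, and Glp2r by the 2 reads of Des+/+ non-swim replicate 2.

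The neighbours of the 4 genes were examined next. Of the 5 listed genes on each side, 18 of 40 were tested. Without swimming 7 were called, 2 of them as lower and the rest as higher. Of all genes, 32.0% were called in either direction, 18.0% lower and 14.0% higher. After swimming 1 of the 18 was called, as lower, against 10.6% and 5.57% of all genes, so that the shares called lower lay near the background. The share called higher without swimming lay above that of all genes, among 18 genes only, and this difference was not tested. Among the genes listed beside Sun3, Hus1, a DNA damage checkpoint protein, was lower after swimming (log2 change -0.70, edgeR adjusted p 0.0486). Vwc2, a BMP antagonist, was lower without swimming (-3.56, 0.0472), from 38 reads at most. Listed neighbours can be far apart. In chromosomal coordinates the Hus1 start lay at -37.8 kb from that of Sun3, and the Vwc2 start at 2070 kb. Igfbp3 (1.07, 0.00867) and Tns3 (1.27, 0.00808), listed beside Sun3 with starts at -1840 and -384 kb, were higher in Des-/- cells without swimming. So were Gprc5b, listed beside Acsm5 (0.75, 0.00348), Slc16a4, listed beside Slc6a17 (1.12, 0.0464), and Gas7, listed beside Glp2r (1.39, 0.0205). Dhrs7c, a short-chain dehydrogenase of the sarcoplasmic reticulum 3 listed genes from Glp2r, was lower without swimming (-2.58, 0.00371).

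Acsm5 sits in a cluster of its own family, and few reads came from its relatives. Acsm1, Acsm2, Acsm3 and Acsm4 had at most 2, 1, 6 and 0 reads in any library, so Acsm5 had the most reads of these 5 genes. The next upstream gene, Pdilt, which overlaps Acsm5 on the other strand, had at most 1 read. The skeletal muscle myosins Myh1, Myh4, Myh8 and Myh13, listed next to Glp2r, had at most 8, 1, 3 and 1 reads. Ubl4b, the nearest gene on one side of Slc6a17, had 0 reads in all libraries, while Kcnc4, a potassium channel on the other side, stood at 1.27 ± 0.644 CPM in unswum Des+/+ and 1.09 ± 0.500 CPM in unswum Des-/- cells (SD, n = 3 each) and was not called.

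Genes on the opposite strand overlap 3 of the 4. Gm11992 begins within the first part of Sun3 and held 23, 11 and 16 reads in Des+/+ non-swim, 8, 2 and 2 in Des+/+ swim, 1, 2 and 2 in Des-/- non-swim and 0, 1 and 4 in Des-/- swim libraries, too few for the test. Gas7 and Rcvrn overlap Glp2r, and Glp2r held 0 to 3 reads in the Des-/- libraries, in which Gas7 averaged 70.8 ± 26.5 CPM (SD, n = 3) without and 35.6 ± 24.3 (SD, n = 3) after swimming. Counting was set to the reverse strand, while the sources name both an unstranded and a directional kit. Reads of overlapping genes can be told apart only in a directional library.

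**Figure D4:**
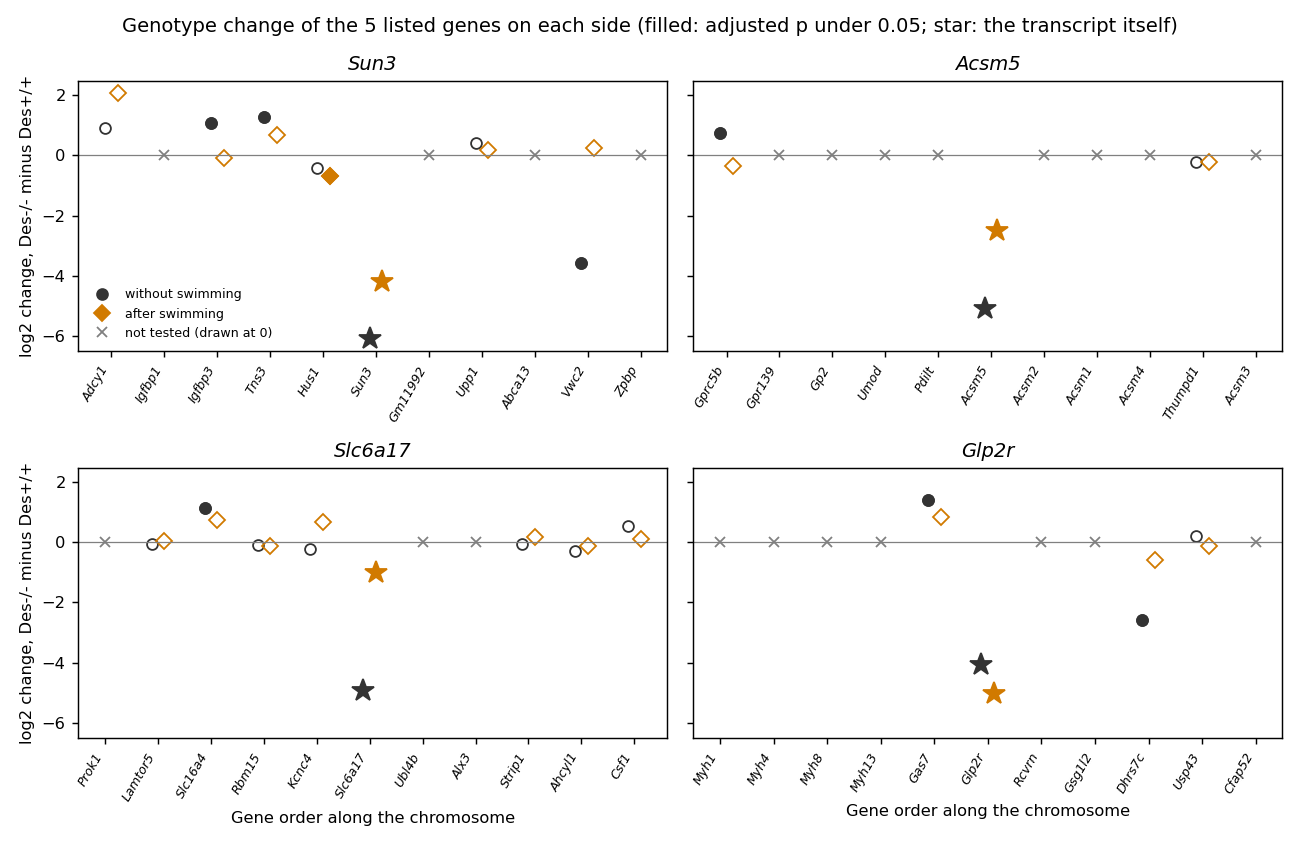
log2 change of Des-/- relative to Des+/+ (y axis) for the 5 listed genes on each side of each transcript in chromosomal order (x axis), without swimming (circles) and after it (diamonds), filled at an edgeR adjusted p under 0.05. The transcripts themselves are stars, crosses drawn at 0 are the 22 genes that were not tested, and the tested neighbours lie between -3.56 and 2.06.

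The other genes of each family were counted from lists that hold none of the 4. Among 22 genes of the SUN and KASH bridge and the nuclear lamina, 19 were tested. Without swimming 4 were higher and 2 lower, at a median log2 change of 0.15, against 0.04 for all genes, and after swimming 0 were higher and 1 lower, at -0.22 against 0.02. Of all genes, 14.0% were called higher and 18.0% lower without swimming, and 5.01% higher and 5.57% lower after it. Sun2, one of the widely expressed SUN proteins, was lower in both states, by a log2 change of -0.44 (edgeR adjusted p 0.0112) and -0.58 (0.0143). Sun1, its close relative, stood at -0.29 (0.173) and -0.35 (0.149). Per length, Sun2 and Sun1 stood at 35.8 and 19.0 CPM per kb over the Des+/+ libraries, above the 4.35 and 4.92 of Sun3, and Sun5 had no read in any library. The lamin genes Lmna (0.88, edgeR adjusted p 0.0378), Lmnb1 (1.63, 0.0105) and Lmnb2 (1.03, 0.015) and the KASH gene Syne3 (0.86, 0.0217) were higher without swimming. Tor1aip1, which binds lamins, was lower (-0.55, 0.0121). None of these was called after swimming, with Lmna at 0.17, Lmnb1 at 0.09, Lmnb2 at 0.25, Syne3 at -0.78 and Tor1aip1 at -0.38. Lmna varied widely in unswum Des-/- cells (378 ± 182 CPM, SD, n = 3).

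Among 22 genes for acyl-CoA synthetases and related fatty acid activation, 15 were tested. Without swimming 1 was higher and 6 lower, at a median log2 change of -0.38, where 14.0% of all genes were called higher and 18.0% lower at a median of 0.04. After swimming 1 was higher and 1 lower, at -0.24, where 5.01% of all genes were called higher and 5.57% lower at a median of 0.02. The lower genes without swimming were Acsl6 (-2.91), Acsl1 (-2.58), the main long-chain enzyme of heart, the acetyl-CoA synthetases Acss1 (-2.49) and Acss2 (-1.40), the fatty acid transporter Slc27a1 (-1.82) and Acsf3 (-1.01), a malonyl-CoA synthetase. Acss1 was also lower after swimming (-1.45, edgeR adjusted p 0.0278), and Slc27a3 was higher in both states (1.11, adjusted p 0.0145, and 1.10, adjusted p 0.039). After swimming, the state that did not choose it, the log2 change of Acsm5 (-2.50) lay below those of these 15 genes.

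Of 19 sodium-coupled transporters of the SLC6 family, 5 were tested, with 1 higher and 1 lower in each state, too few to set against the shares of all genes called (14.0% higher and 18.0% lower without swimming, 5.01% and 5.57% after it). The creatine transporter Slc6a8 was lower in unswum (-1.20, edgeR adjusted p 0.00263) and in swum (-0.91, 0.0282) Des-/- cells. Slc6a7, a proline transporter of neurons, was higher (3.67, adjusted p 0.0084, and 4.07, adjusted p 0.0217), at 0.316 ± 0.0695 CPM in unswum Des+/+ and 4.20 ± 1.30 CPM in unswum Des-/- cells (SD, n = 3 each). In the swum Des-/- libraries it held 10, 5 and 68 reads, most of them in replicate 3. Slc6a15, the closest relative of Slc6a17, had at most 4 reads. The taurine transporter Slc6a6, at 54.1 CPM per kb the highest of the list in Des+/+ cells, was not called. As Slc6a17 is known from neurons, neuron and Schwann cell markers were counted as well. Their summed level was 72.2 to 94.0 CPM in Des+/+ non-swim, 82.9 to 99.8 in Des+/+ swim, 51.5 to 95.2 in Des-/- non-swim and 88.8 to 115 in Des-/- swim libraries. Of 13 markers 7 were tested, and 1 was called higher and 1 lower without swimming and none after it, and Chat was at 0 in all libraries.

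Of 21 class B peptide hormone receptors with their peptides and partners, 12 were tested, of which 2 were higher and 1 lower without swimming and 2 higher and 0 lower after it, against the same shares of all genes. The parathyroid hormone receptor Pth1r was higher in both states (log2 change 1.00, edgeR adjusted p 0.0214, and 1.46, adjusted p 0.017), the PACAP receptor Adcyap1r1 was higher without swimming (1.32, adjusted p 0.0177) and the GIP receptor Gipr after it (3.37, adjusted p 0.0332), from 15 reads at most. The urocortin receptor Crhr2 was lower without swimming (-2.02, adjusted p 0.0054). The median was 0.11 without and 0.25 after swimming. Gcg, which encodes the GLP-2 precursor, had at most 1 read, and Glp1r, the receptor of the sister peptide, at most 5. Male germ cell markers, counted because Sun3 is known from spermatids, passed the filter for none of 9 genes, with a sum of 0.107 to 1.54 CPM over all libraries and Prm1, Prm2 and Tnp2 at 0 throughout.

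**Figure D5:**
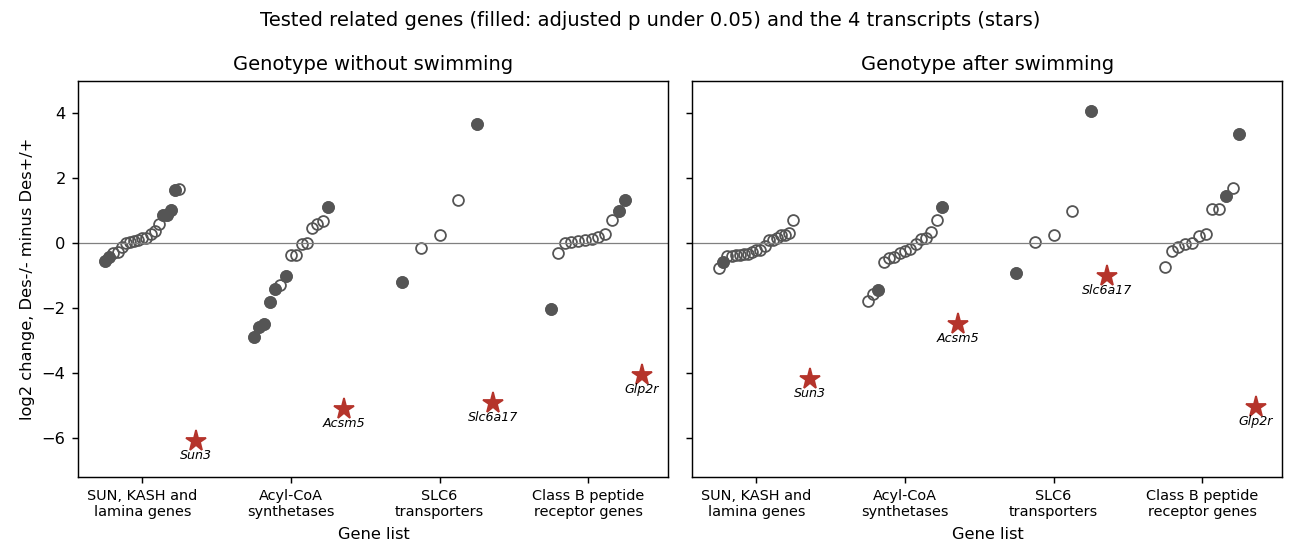
log2 change of Des-/- relative to Des+/+ (y axis) for the tested genes of 4 related lists (x axis), without swimming on the left and after it on the right, filled at an edgeR adjusted p under 0.05. Stars are the 4 transcripts, whose values without swimming (Sun3, Acsm5, Slc6a17) or after it (Glp2r) are those that chose them, and which in the other state, at -4.19, -2.50, -1.02 and -4.08, lie below the tested genes of their list.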

How the data were processed

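The authors deposited raw counts of reads per gene, 1 file per library, made by aligning single-end reads to GRCm38 with HISAT2 2.2.1 and counting with HTSeq-count on the reverse strand, with no normalisation. On strand the sources differ, since the labelled kit keeps none and the kit in the methods does. Per the study's methods, each library pooled cells of several mice.

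Tests used edgeR 4.0.16 in R 4.3.3 (filterByExpr, TMM, quasi-likelihood test, 4 group means over 12 libraries, 8 residual degrees of freedom) and adjusted by Benjamini and Hochberg over 13158 genes, with calls at 0.05. With 3 libraries against 3, no exact permutation p can go below 0.1, so single values have none. Pooled ratios have 95% exact binomial intervals. Likeness was Pearson's r on log2 CPM (prior count 2). Alternatives were DESeq2 1.42.0, other scalings and filters, fits of 6 libraries, a replicate block and leaving out libraries.

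The main tests used no pairing by replicate number. Between the Des-/- groups same-numbered libraries deviated together (r 0.365, 0.316 and 0.602). The last value is that of replicate 3, which had a low cardiomyocyte share in both groups. Whether the numbers pair samples was not tested.

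The genes and lists were chosen with earlier results of these data known. Genes named beside them were the 5 most alike, the 5 neighbours on each side, those with at most 3 reads in all Des-/- and more in all Des+/+ libraries, called genes of 4 related lists, and relatives of each. Zfp429, Gm8909, Ceacam2, Kcnj14 and the Myh genes were named after their values were seen. Promoters were read from the first RefSeq start of each gene.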

Additional observations from a re-analysis of the deposited data

How the results depend on the processing

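Genes called numbered 1392 for genotype after swimming, 4210 for genotype without it, 12 for swimming in Des+/+, 3 for swimming in Des-/- and 0 for the interaction. DESeq2 called 2332 after swimming, 798 for swimming in Des+/+, 339 for swimming in Des-/- and 299 for the interaction. For swimming in Des+/+ the count was 54 with RLE scaling, 58 without a filter, 19 with the replicate block and 282 from the 6 libraries alone. For swimming in Des-/- it was 7 without a filter and 0 from 6 libraries. Without the 3 libraries that stood apart, 2699 were called for genotype without swimming. Over fits that each left out 1 library, the counts ran from 74 to 2142 for genotype after swimming, from 2612 to 4590 without it, from 0 to 155 and from 0 to 51 for swimming in Des+/+ and Des-/-, and stayed at 0 for the interaction. The log2 change ran from -4.44 to -3.82 for Sun3, from -2.72 to -2.15 for Acsm5 and from -1.41 to -0.17 for Slc6a17, all after swimming, and from -7.07 to -3.34 for Glp2r without it, where the first value comes from Des-/- libraries at 0 reads and is no bound. The pooled ratio of Slc6a17 after swimming ran from 1.17 to 2.77.

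Sun3 was called under 17 of 20 alternatives (edgeR or DESeq2 adjusted p 9.29e-05 to 0.0813), Acsm5 under 11 of 20 (0.00978 to 0.18), Glp2r under 15 of 19 (0.00354 to 0.0787) and Slc6a17 under 0 of 19 (0.33 to 0.924). These alternatives include the marker scaling and the fit without the 3 libraries that stood apart, both added after the data were seen. Scaled to cardiomyocyte marker reads, the log2 changes of Sun3 (-3.37), Acsm5 (-1.61) and Glp2r (-2.28) kept their direction and were no longer called, and the cause was not tested. With the replicate block the log2 change was -4.32 for Sun3 (adjusted p 0.0208), -2.52 for Acsm5 (0.0413), -0.93 for Slc6a17 (0.51) and -3.94 for Glp2r (0.038), so it changed no call of the 4. Slc6a17 after swimming and Glp2r without it had no value in the fits of 6 libraries, where they did not pass the filter. Where leaving out 1 library took a Des-/- group to 0 reads, the ratio was computed against 3 reads over the group and is a lower bound, at least 38.4 for Sun3 and 13.8 for Glp2r without swimming, and at least 15.9 for Glp2r after it. The Des-/- libraries held 0 to 7 reads of each gene, which limits the size of each fold and, for Slc6a17 after swimming, its direction.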

Other observations

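The low level of Glp2r in Des+/+ non-swim replicate 2 was shared by a few other genes, looked up after the values were seen. For this count the highest Des-/- level was taken as no less than 0.656 CPM, 3 reads of the shallowest library. In that library 3 genes lay at or below this level while the other 5 Des+/+ libraries each lay at least 4 times above it. No other Des+/+ library had such a gene. The floor left out Glp2r, on chromosome 11, and Klk1b22, whose lowest values in the other Des+/+ libraries were 2.075 and 1.353 CPM. The 3 genes counted were Ceacam2, with 4 reads against 180 to 525, Kcnj14, with 11 against 75 to 236, and Cacng6, with 0 against 27 to 79, and the 3 lie on chromosome 7. With the same floor, genes for which all 6 Des+/+ libraries lay at least 4 times above every Des-/- library were 2, Des and Tmem144. Tmem144 had 455 or more reads in Des+/+ and 86 or fewer in Des-/- libraries.

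Of the other cell markers, 12 endothelial genes summed to 7909 to 14920 CPM in Des+/+ and 6825 to 15140 in Des-/- libraries, 11 genes of pericytes and smooth muscle to 4473 to 6131 and 2801 to 6299, and 6 atrial genes to 178 to 777 and 454 to 1524.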
